A study of Arabidopsis thaliana with 4 samples.

Results

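The thylakoid membrane of the chloroplast carries photosystem II, the cytochrome b6f complex, photosystem I and an ATP synthase, and the chloroplast stroma carries Rubisco, the enzyme that fixes carbon dioxide. Each of these is a mosaic: part of its subunits is encoded in the plastid genome and part in the nucleus. The 33 genes described here are the plastid-encoded part, namely 15 genes with psb names (photosystem II), 5 with psa names (photosystem I), 6 with pet names (cytochrome b6f), 6 with atp names (ATP synthase) and rbcL, the large subunit of Rubisco. They were chosen by gene symbol alone from the annotation of the array's probe sets. The 33 probe sets, 1 per gene, were 33 of 22810 on the array, and every plastid gene of these names in the RefSeq gene table had its own probe set.

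The plastid genome is transcribed by a bacterial-type RNA polymerase encoded in the plastid and by phage-type polymerases encoded in the nucleus. Most of its genes are transcribed together in units of several genes, and the long precursors are then cut, spliced and trimmed. Mature levels depend strongly on how well nuclear-encoded proteins protect individual ends from nucleases, so genes of one unit can differ in level. Plastid transcription is known to respond to the redox state of the photosynthetic electron transport chain and of thiol-carrying regulators.

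Total RNA came from leaf discs of wild-type Arabidopsis thaliana, accession Col-0. The discs were cut from full-grown source leaves of non-flowering plants at the end of the night. They were kept for 1 h in the dark in 2 mM MES buffer of pH 6.5, either without additive (control) or with 5 mM dithiothreitol (DTT), a small thiol compound that crosses membranes and reduces disulfides. The treatment was meant to shift the redox state of the cells, and each group had 2 biological replicates on 1 Affymetrix ATH1 array each, called control 1, control 2, DTT 1 and DTT 2 here. Both groups share darkness, cutting and the buffer, and no array from uncut leaf or from illuminated discs was analysed here.

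The deposited values are linear signals per probe set in arbitrary units, scaled so that the trimmed mean was 100 on every array, and the array medians lay between 25.4 and 32.8. The arrays differed more by replicate number than by treatment. The control probe set for 25S ribosomal RNA, which like most plastid RNA carries no long poly(A) tail, read 2525.6 on control 1, 847.8 on DTT 1, 100.5 on control 2 and 24.4 on DTT 2. That for 5S ribosomal RNA read 452.4, 399.2, 7 and 1 on the same arrays. Of the cell type markers listed for leaf, the mesophyll marker RCA, Rubisco activase, was strong on every array, from 2751.6 to 4077.4. The phloem marker SWEET11 lay between 864 and 1087.9 and the guard cell marker FMA between 23.8 and 31.6. The other listed mesophyll, phloem and guard cell markers, and the listed epidermis and root markers, were not analysed here.

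In replicate 1 the 33 transcripts lay evenly around no difference between DTT and control, whereas in replicate 2 most lay lower after DTT, and the lowest of these were subunits of both photosystems. With all 4 arrays and no block for replicate number, no member passed the test. In limma without a block, 0 of 33 members were called at an adjusted threshold of 0.05, against 0% of all 13648 probe sets tested. At an unadjusted threshold of 0.05 the count was again 0 of 33, against 0.696%. The smallest adjusted p of a member was 0.9999. Because whole discs were extracted, fewer cells of a type and less RNA per cell cannot be told apart.

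Within replicate 1, 16 of 33 members were lower on the DTT array (53.5% of all tested probe sets were), with a median of 0.02 for the log2 change, DTT minus control. Within replicate 2, 25 of 33 were lower (49% of all tested), and the median was -0.54, against 0.01 over all tested probe sets. A decrease of at least 2-fold was measured for 0 members in replicate 1, where 1.95% of all tested probe sets had one, and for 8 in replicate 2, where 2.3% had one. An increase of at least 2-fold was measured for 0 members in either replicate, against 1.14% and 0.601% of all tested. The direction was opposite in the replicates for 21 of 33 members, against 48.3% of all tested, lower in both for 10 (27% of all tested) and higher in both for 2 (24.3%). Across the 33 members, which share the same arrays, the changes of replicate 1 and replicate 2 were nearly unrelated, with Pearson's r of -0.10 and Spearman's rho of 0.01. Without psaA, r was 0.21 and rho 0.09. The changes of the replicates were little related over all tested probe sets as well, with r of 0.11 and rho of 0.06.

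Over both replicates the members had a median log2 change of -0.22, against -0.01 for all tested probe sets. The value rested on the balance of the arrays, since it was -1.06 without DTT 1, -0.87 without control 2, 0.27 without control 1 and 0.48 without DTT 2. Leaving out an array sets groups of unequal replicate number against each other, so the replicate difference described further on enters these values. Of the 33 members, 5 kept the sign of their change without each array in turn. These were psbC, atpF and rbcL, which were lower after DTT, and psbK and petA, which were higher.

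**Figure D1:**
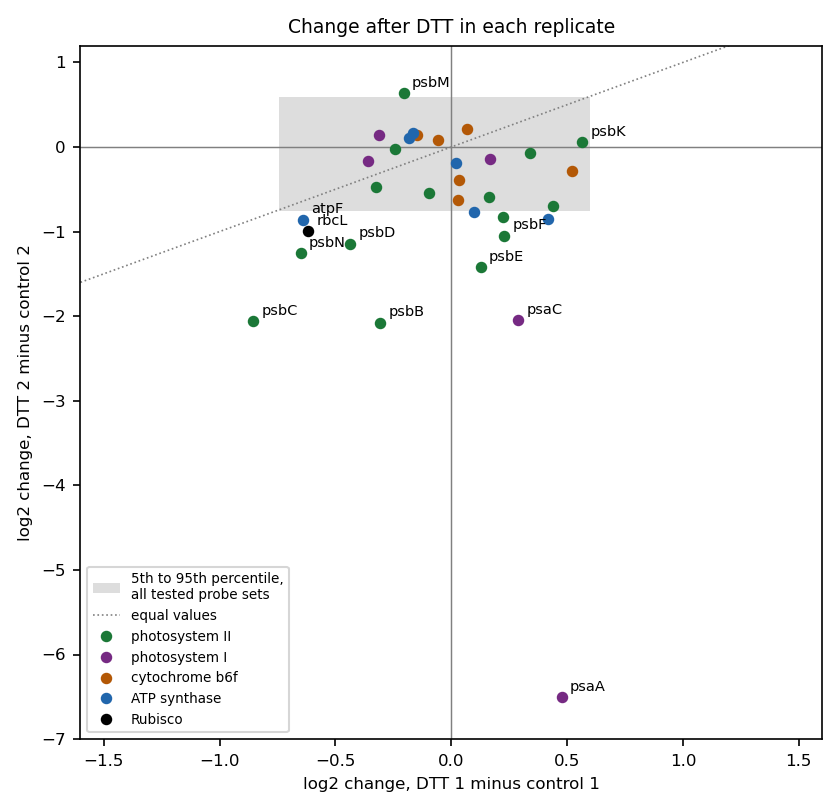
Log2 change after DTT for the 33 members, replicate 1 on the horizontal and replicate 2 on the vertical axis, with 1 point per probe set coloured by complex and the 5th to 95th percentile of all tested probe sets in grey. All points lie between -0.85 and 0.56 along the horizontal axis, while along the vertical axis they reach -2.08, and -6.50 for psaA.

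The groups overlapped for nearly every member. For 0 of the 33 did DTT 1 and DTT 2 both lie below both controls, a pattern that 9.81% of all tested probe sets showed. psbK alone had both DTT arrays above both controls, a pattern seen in 8.01% of all tested. psbK, a small subunit of photosystem II, read 1977.7 and 2017.9 in the controls and 2925.6 and 2103.1 after DTT. Its log2 changes were 0.56 and 0.06, so replicate 1 carried most of that difference, and its adjusted p was 0.9999 without a block and 0.769 with one.

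When replicate number was entered as a block, which compares each DTT array with the control of its own number, limma called 4 of 33 members lower and 0 higher, against 0.637% lower and 0.286% higher among all tested. The 4 are psbC, psbB and psbN of photosystem II and psaA of photosystem I. This fit leaves 1 residual degree of freedom, and nothing in the labels ties equal numbers to one harvest or batch. The count was 6 with a stricter filter on dim probe sets, a fit that called 176 of all 9099 it tested. Members called numbered 2 with a pseudocount of 64 (135 of all 13648 called) or robust variance (105 of all 13648). They numbered 1 with quantile normalization (71 of all 13648) or a pseudocount of 16 (58 of all 13648). They numbered 0 with one median per array (3 of 13648), with no filter (3 of 22746) and without the variance trend (35 of 13648). Of the 4 called, only psbC remained called in each block fit with another pseudocount, quantile normalization, robust variance or stricter filter, and it too was lost with one median per array, with no filter and without the variance trend.

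Photosystem II is the largest of the groups, with 15 members. Of these, 8 were lower after DTT in replicate 1 (53.5% of all tested) and 13 in replicate 2 (49% of all tested). The median log2 changes were -0.10 and -0.70. Among them psbA, psbB, psbC and psbD were each lower in both replicates. psbC, the core antenna protein CP43, read 3385.4 on control 1, 1872.9 on DTT 1, 1396.2 on control 2 and 335.2 on DTT 2. The DTT signal was thus 1.81-fold lower in replicate 1 and 4.17-fold lower in replicate 2, although DTT 1 still lay above control 2. The group means were 2391 ± 1407 in control and 1104 ± 1087 after DTT (SD, n = 2). The mean log2 change of psbC was -1.46, with an SE of 0.88 and a limma adjusted p of 0.9999 without the block, and an SE of 0.22 and an adjusted p of 3.81e-04 with it.

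psbB, the core antenna protein CP47, read 1065.4 on control 1, 861.3 on DTT 1, 100 on control 2 and 23.7 on DTT 2. Replicate 1 therefore showed a 1.24-fold lower and replicate 2 a 4.22-fold lower signal, and the controls alone differed 10.7-fold. Its mean log2 change was -1.19 (limma adjusted p = 0.9999 without the block, 0.0370 with it). psbD, the reaction centre protein D2, read 822.8, 608.5, 118.4 and 53.6 on control 1, DTT 1, control 2 and DTT 2. That is 1.35-fold lower in replicate 1 and 2.21-fold lower in replicate 2, with an adjusted p of 0.150 in limma with the block. psbA, the reaction centre protein D1 that turns over rapidly in light, read 3332.5, 2664.5, 1218.1 and 875.4 in the same order. Its signals were 1.25-fold and 1.39-fold lower after DTT, the most even pair among psbA, psbB, psbC and psbD.

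psbN stands apart in kind. Its product is needed to assemble photosystem II in tobacco rather than being a lasting subunit, and the gene lies on the strand opposite to its neighbours psbT and psbH. Its signals were 732.6 on control 1, 466.9 on DTT 1, 125.5 on control 2 and 52.6 on DTT 2, or 1.57-fold and 2.39-fold lower after DTT. The mean log2 change was -0.95 (limma adjusted p = 0.9999 without the block, 0.0474 with it). psbT, a small subunit from the facing strand, read 939.8, 879.1, 169.3 and 116.1, with log2 changes of -0.10 and -0.54. psbH, a phosphorylated small subunit beside it, read 1502.4, 2037, 1109.4 and 684.9, so it was 1.36-fold higher in replicate 1 and 1.62-fold lower in replicate 2.

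The genes psbE, psbF, psbL and psbJ form one transcription unit. psbE and psbF encode both chains of cytochrome b559, and psbL and psbJ small subunits near it. All 4 were slightly higher after DTT in replicate 1, with log2 changes from 0.13 to 0.23, and all 4 were lower in replicate 2, from -1.42 to -0.59. psbE read 1066.7 on control 1, 1164.3 on DTT 1, 302.5 on control 2 and 112.9 on DTT 2, which is 2.68-fold lower in replicate 2. psbF read 1822.8, 2136.8, 858.4 and 414.9 on the same arrays, which is 2.07-fold lower in replicate 2. psbJ read 1830.1, 2135.8, 1330.9 and 747.7. In psbL the values were 949.5, 1064.1, 564.1 and 374.4. These 4 genes therefore moved together within each replicate and in opposite directions between replicates, and none passed the test with the block (adjusted p from 0.447 to 0.954).

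Among the other small subunits of photosystem II, psbZ and psbI lay near 0 in replicate 2. psbZ read 3664.7, 3096, 2692.9 and 2642 on control 1, DTT 1, control 2 and DTT 2, with log2 changes of -0.24 and -0.03. In psbI they were 1916.4, 2428.2, 1955.1 and 1858.7, with log2 changes of 0.34 and -0.07. psbM was the member with the largest increase in replicate 2, with 5873.8 on control 1, 5094.9 on DTT 1, 2537.5 on control 2 and 3951.9 on DTT 2. It was 1.15-fold lower in replicate 1 and 1.56-fold higher in replicate 2. Large decreases in replicate 2 were thus not shared by all genes of photosystem II.

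**Figure D2:**
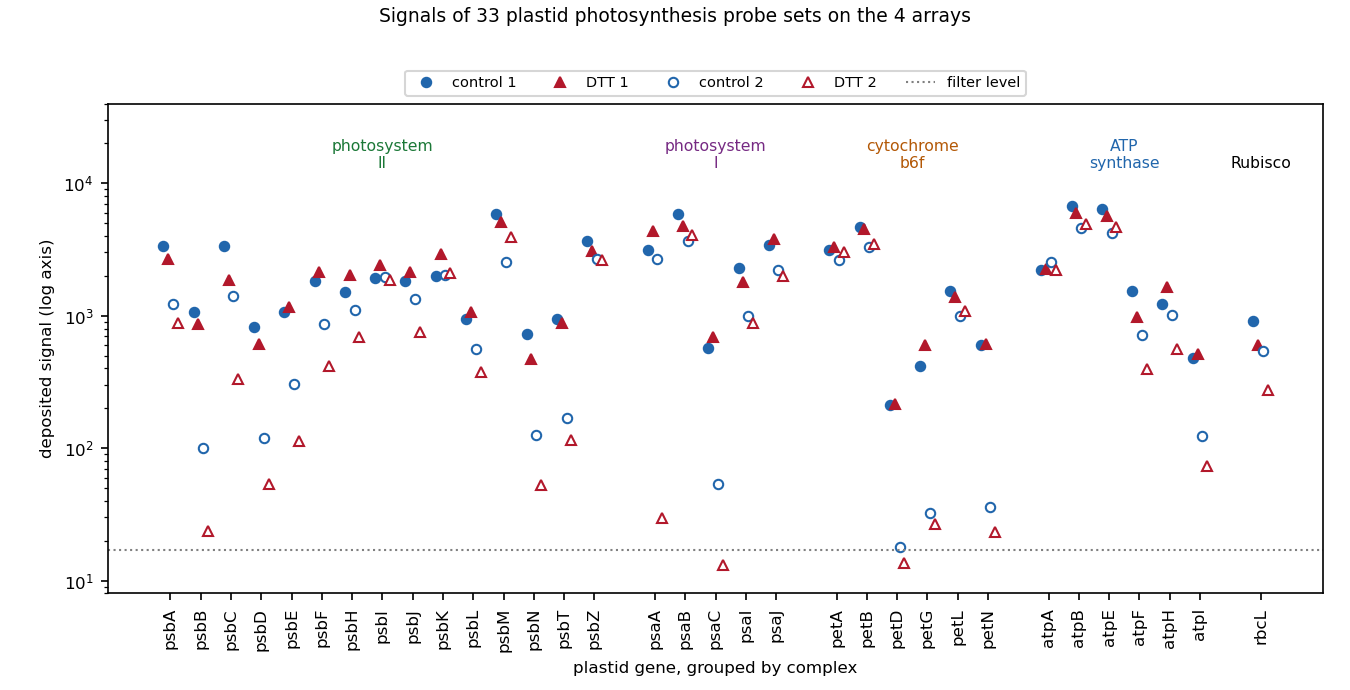
Deposited signals of the 33 members on a log axis, grouped by complex, with circles for control, triangles for DTT, filled symbols for replicate 1 and open symbols for replicate 2. The open symbols lie below the filled ones for most genes, by more than 10-fold in the controls for psbB, psaC, petD, petG and petN, and the dotted line marks the filter level of 16.9.

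Photosystem I gave the most uneven picture, with 2 of 5 members lower in replicate 1 and 4 of 5 in replicate 2 and medians of 0.17 and -0.16. psaA and psaB encode the large reaction centre proteins and are transcribed together. psaA read 3115.4 on control 1, 4333.7 on DTT 1, 2683.3 on control 2 and 29.6 on DTT 2. It was 1.39-fold higher in replicate 1 and 90.7-fold lower in replicate 2, so that a single array, DTT 2, stood apart from the other 3 with a signal not far above the filter level of 16.9. psaB read 5860.6, 4716.1, 3651.9 and 4033.1 on the same arrays and had log2 changes of -0.31 and 0.14. The change of psaA in replicate 2 was therefore not shared by its neighbour.

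The mean log2 change of psaA was -3.01, with an SE of 2.18 without the block (limma adjusted p = 0.9999) and 0.71 with it (adjusted p = 0.0316). It was 0.58 without DTT 2 and -6.61 without DTT 1. Each of these values compares a single DTT array with both controls, so any spread comes from the controls alone. The replicate difference enters both values. psaC, which holds the terminal iron-sulfur clusters of photosystem I and lies among ndh genes, read 566 on control 1, 691 on DTT 1, 53.7 on control 2 and 13 on DTT 2. It was 1.22-fold higher in replicate 1 and 4.13-fold lower in replicate 2, where its DTT signal lay below the filter level of 16.9 (adjusted p = 0.352 with the block). psaC and psaA thus agreed in direction within each replicate but differed in the level of control 2.

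Small subunits of photosystem I varied less. psaI read 2288.1, 1781.2, 990.7 and 885.8 on control 1, DTT 1, control 2 and DTT 2, which is 1.28-fold and 1.12-fold lower. psaJ read 3403.9, 3817, 2195.2 and 1997, with log2 changes of 0.17 and -0.14. In both, the difference between replicate numbers exceeded that between control and DTT.

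Cytochrome b6f had the median log2 changes closest to 0, at 0.03 in replicate 1 and -0.10 in replicate 2. Of its 6 members, 2 were lower after DTT in replicate 1 and 3 in replicate 2. Single members ran from -0.15 to 0.52 in replicate 1 and from -0.62 to 0.21 in replicate 2. Signals of petD, petG and petN lay near the filter level on control 2 and DTT 2, which limits what their changes there can show. petA, cytochrome f, read 3155.8 on control 1, 3310 on DTT 1, 2632.3 on control 2 and 3051 on DTT 2, which is 1.05-fold and 1.16-fold higher. It was 1 of only 2 members higher after DTT in both replicates, with psbK. petB, cytochrome b6, read 4699.2, 4523.2, 3309.7 and 3503.4, within 1.06-fold of its control in each replicate.

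petD, subunit IV of the complex, lies beside petB in the psbB unit and behaved differently between replicates. Its signals were 210.5 on control 1 and 215.2 on DTT 1 but 17.8 on control 2 and 13.6 on DTT 2, the last below the filter level. petG and petN, small subunits needed for stable assembly, followed the same course. petG read 417.6, 599.9, 32.3 and 26.6, and petN 596.9, 608.4, 35.9 and 23.3, on control 1, DTT 1, control 2 and DTT 2. For all 3 genes the controls differed 11.8-fold to 16.6-fold between replicates, while DTT and control of one number differed by at most 1.54-fold. petL, another small subunit and a unit partner of petG, read 1545.8, 1393.5, 990.2 and 1088.1.

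The ATP synthase genes are described here by part of the enzyme. atpA, atpB and atpE, which encode the alpha, beta and epsilon subunits of the catalytic head, stayed within 1.14-fold of their control in both replicates. atpB read 6777.6 on control 1, 5967.7 on DTT 1, 4563.1 on control 2 and 4908.3 on DTT 2. atpE, which overlaps it in one unit, read 6395.5, 5696.4, 4182.6 and 4702.6 and kept nearly the same log2 changes, -0.17 and 0.17 against -0.18 and 0.11. atpA read 2219.2, 2248.5, 2520.8 and 2203.4.

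The membrane part is encoded by atpI, atpH and atpF, which share a transcription unit with atpA, and all 3 were lower in replicate 2, by 1.70-fold to 1.81-fold. In replicate 1 their directions differed, and the genes of the head and of the membrane part were not tested against each other. atpF, a stalk subunit whose gene holds an intron, read 1532.9 on control 1, 982.5 on DTT 1, 711.9 on control 2 and 392.7 on DTT 2. It was 1.56-fold lower in replicate 1 as well, for a mean log2 change of -0.75 (limma adjusted p = 0.9999 without the block, 0.0881 with it). atpH, the subunit of the membrane ring, read 1229.5, 1639.8, 1013.1 and 563.5, and atpI 482.4, 516.1, 124 and 72.8. Both were higher in replicate 1, by 1.33-fold and 1.07-fold, so only atpF of these 3 had the same direction in both replicates.

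rbcL read 915.8 on control 1, 597.2 on DTT 1, 543.9 on control 2 and 273.7 on DTT 2. The DTT signal was 1.53-fold lower in replicate 1 and 1.99-fold lower in replicate 2. The group means were 729.9 ± 263 and 435.4 ± 229 (SD, n = 2), and DTT 1 lay above control 2. The mean log2 change of -0.80 had an SE of 0.50 without the block (limma adjusted p = 0.9999) and 0.22 with it (adjusted p = 0.0820). With the stricter filter and the block, rbcL and atpF joined the 4 members called (adjusted p = 0.0287 and 0.0352).

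By transcription unit, the members of a unit changed unequally. In replicate 2, the psbB unit of psbB, psbT, psbH, petB and petD ran from -2.08 for psbB at its start to 0.08 for petB on the log2 scale. The unit of psbD, psbC and psbZ ran from -2.06 for psbC to -0.03 for psbZ, with -1.14 for psbD, which overlaps psbC. In contrast, atpB and atpE differed by 0.06 in their log2 change in replicate 2, and psbK and psbI by 0.13. Of the 9 units with more than 1 member, all members were lower in replicate 2 in 3, namely psbD-psbC-psbZ, psbE-psbF-psbL-psbJ and atpI-atpH-atpF-atpA. In replicate 1 the first of these was again lower in every member, and the second was higher in every member.

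**Figure D3:**
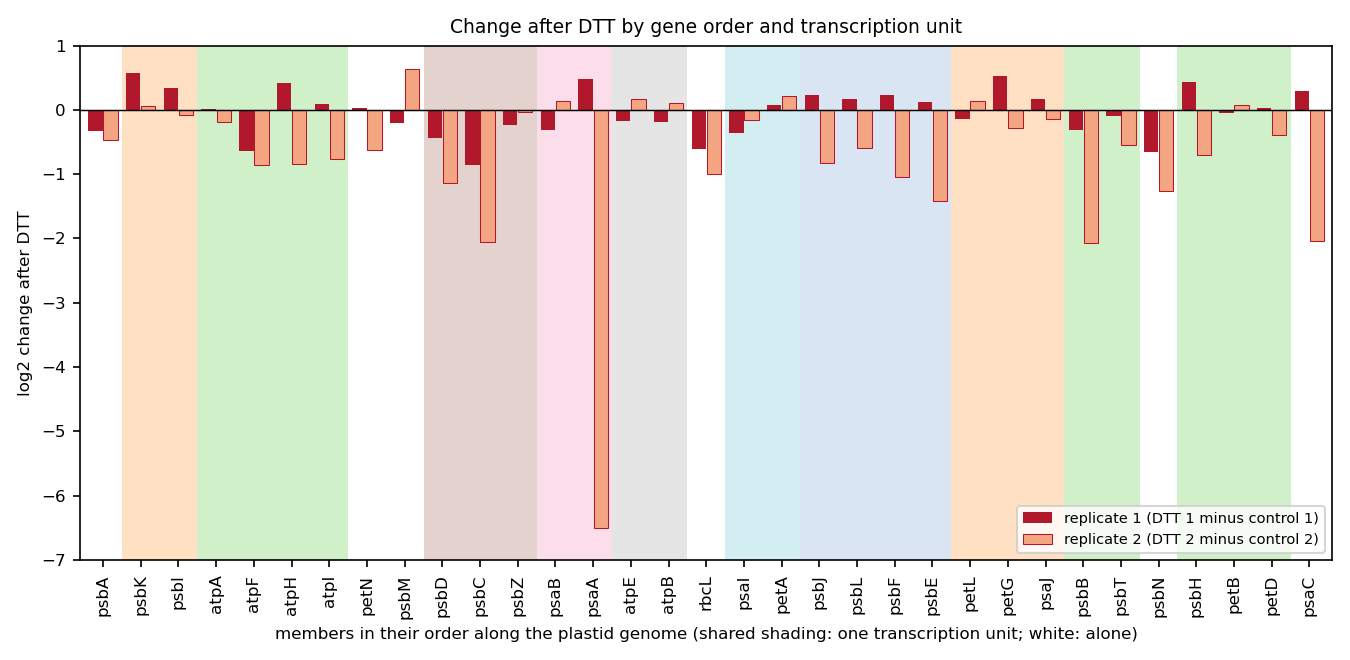
Log2 change after DTT in replicate 1 (dark bars) and replicate 2 (light bars) for the members in their order along the plastid genome, with genes of one transcription unit on the same shading. Replicate 2 bars reach below -1 for psbD, psbC, psaA, psbF, psbE, psbB, psbN and psaC, and neighbours such as psaB and petB lie near 0.

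The difference between replicate numbers was larger than that between treatments for most members. Control 2 was lower than control 1 for 30 of 33 members (58.8% of all tested probe sets), and DTT 2 was lower than DTT 1 for all 33 (55.5% of all tested). For the members the median log2 difference, replicate 2 minus replicate 1, was -0.75 in the controls and -1.51 after DTT, against medians of -0.14 and -0.10 over all tested. A difference of at least 2-fold in this direction was seen for 16 members in the controls (8.93% of all tested) and 21 after DTT (12.9%). The direction was shared by the 36 other plastid genes described further on. Of these, 29 were lower in control 2 and 31 in DTT 2, with medians of -0.50 and -0.56, and 11 were at least 2-fold lower in each group. The 3 members not lower in control 2 were atpA, psbI and psbK. Over the 33 members, which share the 4 arrays, the replicate difference in control and in DTT correlated with Pearson's r of 0.71 and Spearman's rho of 0.68, and without psaA r was 0.92. Over all tested probe sets r was 0.75 and rho 0.71.

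**Figure D4:**
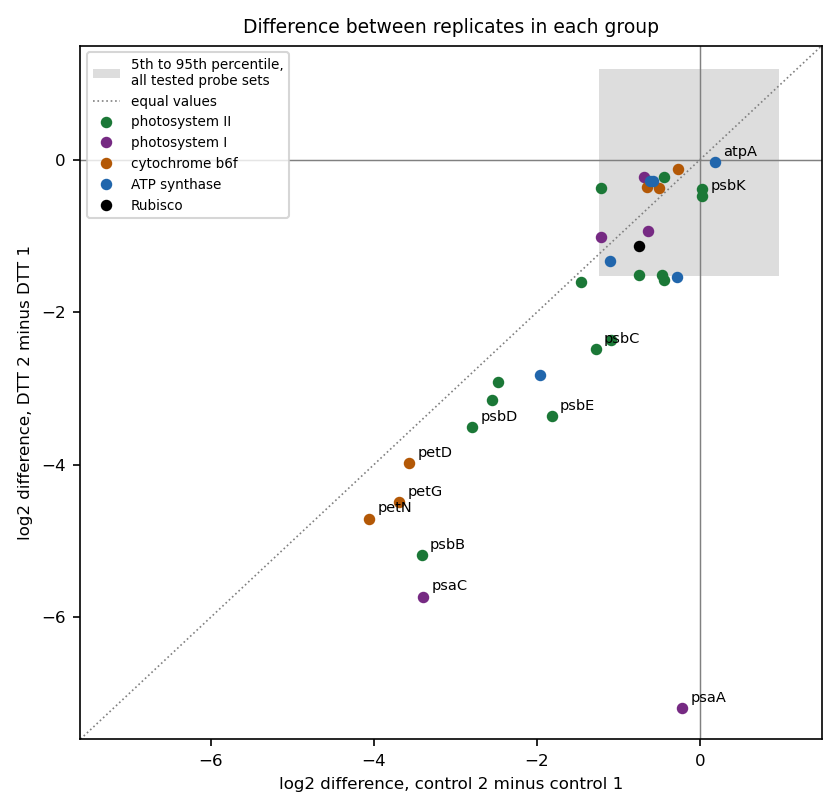
Log2 difference between replicates, control 2 minus control 1 on the horizontal and DTT 2 minus DTT 1 on the vertical axis, for the 33 members, with the 5th to 95th percentile of all tested probe sets in grey. The points reach down to -4.06 for petN on the horizontal axis. Many lie below the dotted line of equal values, among them psaC at -3.40 and -5.73, psbB at -3.41 and -5.18, psbE at -1.82 and -3.37, and, farthest from it, psaA at -0.22 and -7.19.

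The median change in replicate 2 differed by signal level, but large decreases were not confined to dim members. Ranked by their mean over replicate 1 alone, which shares no array with replicate 2, 15 of the 16 members with the lowest signals were lower after DTT in replicate 2, with a median of -0.81. Of the 17 with the highest signals 10 were lower, with a median of -0.07. A decrease of at least 2-fold in replicate 2 was seen for 5 of the 16 and 3 of the 17 (2.3% of all tested). The 3 were psaA (log2 change -6.50), psbC (-2.06) and psbF (-1.05). The 25S ribosomal RNA signal given above was also lowest on DTT 2. Its log2 change after DTT was -2.04 in replicate 2 and -1.57 in replicate 1, where the members had a median of 0.02. The 5S signals of replicate 2 both lay below the filter level. The part of signal level and of RNA composition in the changes of the members was not tested.

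The other plastid genes, for the NDH complex, RNA polymerase, ribosome and further functions, had 36 probe sets. Of these, 26 were lower after DTT in replicate 2 and 20 in replicate 1, with medians of -0.15 and -0.08. A decrease of at least 2-fold in replicate 2 was seen for 3 of them (2.3% of all tested), and DTT 1 and DTT 2 both lay below both controls for 3 (9.81% of all tested). limma called 0 of the 36 without the block and 0 with it, against 0 and 126 of all 13648 probe sets tested. With the block joined to another choice it called 1, rps15, with log2(signal + 64) or robust eBayes, against 135 and 105 of all 13648. With the filter on low signals at the 60th percentile it called 2, rps15 and ndhH, against 176 of all 9099 then tested. rps15, a protein of the small ribosomal subunit, read 1593.3 on control 1, 693.3 on DTT 1, 290.4 on control 2 and 195.4 on DTT 2, with log2 changes of -1.20 and -0.57. ndhH, a subunit of the NDH complex, read 313.5, 255.7, 134.4 and 34 on the same arrays, with log2 changes of -0.29 and -1.98. Both had an adjusted p of 0.0510 in limma with the block alone. Whether these genes and the 33 members differ in their response was not tested.

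Nuclear genes for the same complexes had 9 probe sets with a name of their own, all for photosystem, light-harvesting or ATP synthase subunits. limma called 0 of 9 changed, without or with the block, against 0 and 126 of all 13648 probe sets tested. Their log2 changes had medians of -0.14 and 0.19 in replicates 1 and 2. PSAE-1, a stromal subunit of photosystem I, read 4344.9 on control 1, 4495.8 on DTT 1, 3632.2 on control 2 and 4227.1 on DTT 2. ATPC1, the gamma subunit of the ATP synthase and a thioredoxin target, read 1932.9, 1754.7, 2381 and 2723.9. ATPC2, another gene for this subunit, had the smallest unadjusted p of the list, with 24.1, 16.6, 28.6 and 25.7 (adjusted p = 0.9999, and 0.943 with the block). Control 2 was at least 2-fold lower than control 1 for 0 of the 9, beside 16 of the 33 members and 11 of the 36 other plastid genes. This contrast was not tested. LHCB4.3, a minor antenna protein of photosystem II, differed the other way, with 200.4 on control 1, 196.2 on DTT 1, 654.4 on control 2 and 624.9 on DTT 2. The listed nuclear factors of plastid transcription and RNA stability had no probe set with a single name in the annotation used and were not analysed here.

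**Figure D5:**
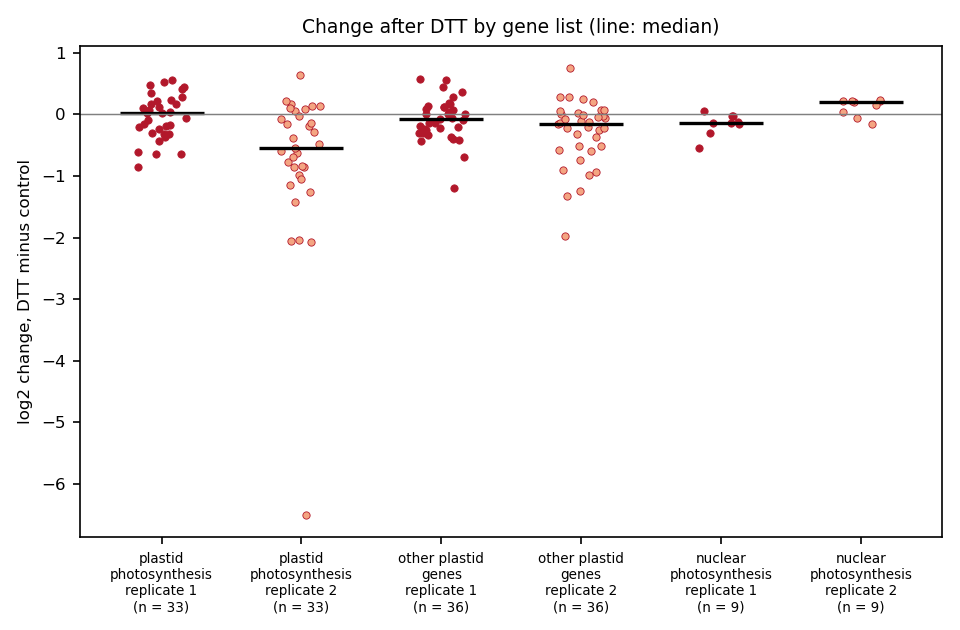
Log2 change after DTT in each replicate for the 33 members, 36 other plastid genes and 9 nuclear photosynthesis genes, with 1 point per probe set and a line at the median. The medians in replicate 2 are -0.54, -0.15 and 0.19, and in replicate 1 0.02, -0.08 and -0.14.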

How the data were processed

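The authors deposited 1 linear intensity (signal) per probe set for each of 4 ATH1 arrays of biotin-labelled total RNA, computed with MAS5, according to the submitters' processing notes. Its version, detection calls and the primer used for labelling were not given in the sources used here. Groups and replicate numbers came from the titles, and all deposited columns were used. The labels call the arrays biological replicates. Depth does not apply to arrays, and 2 arrays per group limit the precision.

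Signals of 0 were set to 0.1 and log2 was taken without further scaling. Of 22746 probe sets other than the 64 controls, the 13648 with a mean log2 signal of at least the 40th percentile (4.08, a signal of 16.9) were tested, all 33 members among them. Each was fitted in limma 3.58.1 (R 4.3.3; lmFit, then eBayes allowing variance to follow the mean), two-sided, with Benjamini-Hochberg adjustment over all probe sets tested and a threshold of 0.05. The fit without a block was the main one. The numbers are not stated to pair the arrays, but over all tested probe sets the log2 difference between control 2 and control 1 and that between DTT 2 and DTT 1 had a Pearson's r of 0.746, so the fit with the number as a block is given beside it. Fold changes within a replicate are ratios of the deposited signals. Scripts were tested on simulated data with known changes. Plots were drawn in matplotlib 3.10.9 (Python 3.11.15).

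Members came from the platform annotation, and all 33 matched a plastid gene in RefSeq (assembly TAIR10.1), used for names and gene order only. Transcription units are those of textbooks. All members may be named; full statistics were kept for members past the threshold in any fit, for extremes within each complex and for members whose groups did not overlap. Members, lists and tests were chosen with earlier results of these data known. No sequences are shown because no sequence table was used here. Alternatives were other scalings, pseudocounts of 16 and 64, other filters and variance models, the block, and leaving out each array.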

Additional observations from a re-analysis of the deposited data

How the results depend on the processing

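Without a block, the count of probe sets changed by DTT was 0 under every alternative with all 4 arrays, 0 to 3 without single arrays, and for the members 0 to 1, the 1 being psaA without DTT 1. With the replicate block it was 126 over all probe sets, 4 of them members. Both counts then moved to 71 and 1 with quantile normalization, 58 and 1 with log2(signal + 16), 135 and 2 with log2(signal + 64), 176 and 6 with the filter at the 60th percentile, 105 and 2 with robust eBayes, 35 and 0 without the variance trend, 3 and 0 with one median per array, and 3 and 0 with no filter. These fits tested 13648 probe sets, except for 9099 with the filter at the 60th percentile and 22746 with no filter. The prior degrees of freedom that limma estimated in these fits ran from 5.34 with no filter and 5.84 with one median per array to 25.5 with the block alone and 71.5 with the stricter filter.

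The median log2 change of all members ranged from -1.06 to 0.48 without single arrays. By complex the range was -1.20 to 0.55 for photosystem II, -0.87 to 0.48 for photosystem I, -1.16 to 1.01 for cytochrome b6f, -0.58 to 0.12 for ATP synthase and -1.37 to -0.24 for rbcL. With all arrays these medians moved by less than the spread between replicates under each alternative. Members turned sign with all 4 arrays, without or with the block, only where their change was near 0. With one median per array this held for atpA (4.98e-04), psaB (0.00300), atpB (0.0489) and petL (0.0813), and with quantile normalization for atpB (0.00527) and psaJ (-0.00787). Without single arrays 28 members turned sign, since by construction these fits leave unequal replicate numbers in the groups. Their ranges were -1.20 to 0.40 for psbA, -0.0585 to 0.33 for psbI, -0.18 to 0.00431 for atpA, -0.99 to 0.56 for atpH, -1.75 to 1.08 for atpI, -2.65 to 2.06 for petN, -0.39 to 0.82 for psbM, -2.54 to 0.96 for psbD, -0.36 to 0.0869 for psbZ, -0.43 to 0.26 for psaB, -6.61 to 0.58 for psaA, -0.31 to 0.31 for atpE, -0.32 to 0.25 for atpB, -0.87 to 0.34 for psaI, -1.06 to 0.45 for psbJ, -0.97 to 0.54 for psbL, -1.59 to 0.77 for psbF, -2.33 to 1.04 for psbE, -0.33 to 0.31 for petL, -2.13 to 2.37 for petG, -0.45 to 0.48 for psaJ, -3.78 to 1.40 for psbB, -1.78 to 1.14 for psbT, -2.53 to 0.62 for psbN, -0.91 to 0.66 for psbH, -0.24 to 0.27 for petB, -2.17 to 1.81 for petD and -3.75 to 1.99 for psaC. Dim signals on replicate 2 limit what those folds can show. Signals lay near or below the filter level on both control 2 and DTT 2 for petD, petG and petN, and on DTT 2 alone for psaA, psaC and psbB.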
